A study of Mus musculus with 12 samples.

Results

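The first 3 days of culture in serum-free medium were examined in 2 lines of mouse embryonic stem (ES) cells, with 1 array per line at day 0 and 1 at day 3. These are 4 of the 12 arrays in the series, which also holds day 10 of the serum-free arm and days 0, 3 and 10 of an arm in medium with 15% fetal bovine serum (FBS). The members were chosen from the labels alone: all arrays of the serum-free arm at day 0 and day 3, compared within each line. Each line carries a GFP construct, named Stella-GFP in one line and Dazl-GFP in the other, and both grew on γ-irradiated mouse embryonic fibroblast feeders with leukemia inhibitory factor (LIF). The serum-free medium was B27N2, and the labels call this arm the 2i condition, with 1 µM PD0325901, an inhibitor of the kinase MEK, and 5 µM Kenpaullone, an inhibitor of GSK3β, named for the 2i experiments. The labels do not state what the serum-free day 0 cells had received, nor whether inhibitors were added in the FBS arm, so neither day 0 nor FBS is described here as free of inhibitor. Each group is 1 array from each line, and nothing in the labels says whether a line is a single clone. The fit takes out the steady difference between the lines, so the p-values rest on how unevenly these 2 lines changed across the 12 arrays. They do not measure spread beyond these 2 lines. RNA was taken from the whole culture, and feeder cells were part of it.

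ES cells held in the presence of LIF receive opposing signals. Fibroblast growth factor (FGF) acts through MEK and the kinase ERK to turn on early-response transcription factors, among them the ETS factors and Myc, and the pathway switches on its own inhibitors, the Sprouty proteins and dual-specificity phosphatases. GSK3β marks β-catenin for destruction, and when it is held back β-catenin accumulates, relieves repression by Tcf7l1 and turns on Wnt target genes. Inhibition of both kinases together with LIF is the textbook way of holding mouse ES cells in the naive state, in which Nanog, Klf4, Tbx3 and Dppa3 (the gene for Stella) are high and the early postimplantation genes Fgf5, Pou3f1 and Dnmt3b are low. Dazl is an RNA-binding protein of germ cells, and the TET enzymes oxidise methylated cytosine.

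Levels are given as log2 signal relative to the 75th percentile of the array, so 0 is the signal of that percentile and 1 unit is a 2-fold difference. Pairs of values are in the order Stella-GFP, Dazl-GFP throughout. The 75th percentile lay between an intensity of 614.5 and 890 on the 4 arrays, 67.8% to 70.5% of probes were well above background, no gene's probe was saturated, and the arrays correlated with each other across genes at r = 0.967 to 0.988. Day 0 and day 3 of a line shared a slide, so each change within a line is also a change within a slide. All 8 ES cell markers checked were well above background on each array, with a summed linear level of 469 to 533 times the 75th percentile at day 0 and 577 to 657 at day 3. All 19 fibroblast markers tested were also above background on each array. Their summed level was 62.9 to 71.1 at day 0 and 37.5 to 47.5 at day 3, lower in both lines. In RNA from a mixed culture, fewer cells of a type and less RNA per cell cannot be told apart.

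A broad set of genes differed between day 0 and day 3 of the serum-free arm. Of 20791 genes tested, 2900 passed an adjusted p of 0.05 in limma's moderated test across all 12 arrays, which is 13.9% of the genes. Of these, 1224 rose (5.89%) and 1676 fell (8.06%), and 1867 changed by 2-fold or more, 728 upward and 1139 downward. The genes that rose most included Cyp1a1, a xenobiotic-metabolising enzyme, Gad2, which makes the transmitter GABA, and the homeobox gene Gsx2. Those that fell most included Tnfsf11, the ligand RANKL, Il1rl1, the interleukin-33 receptor, and the ETS factor Etv4. All 2900 genes moved in the same direction in both lines. The test favours such genes, because lines that move in opposite directions give a small mean change and a large spread. The shared direction is therefore not separate support. Across all tested genes the Stella-GFP and Dazl-GFP changes correlated at r = 0.737, as a description of genes that share arrays. The median change over all genes was -0.04.

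Below, S0 and S3 are the day 0 and day 3 arrays of the Stella-GFP line and D0 and D3 those of the Dazl-GFP line. The number of calls depended strongly on each of the 4 arrays: it was 773 without S0, 450 without S3, 236 without D0 and 574 without D3, and after each omission 1 group was a single array. A gene is said to have kept its call where it passed with each of the 12 arrays left out in turn. The number of called members of the gene lists is given without S0, S3, D0 and D3 in turn. Each count of called members stands beside the shares over all genes, 5.89% higher and 8.06% lower.

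**Figure D1:**
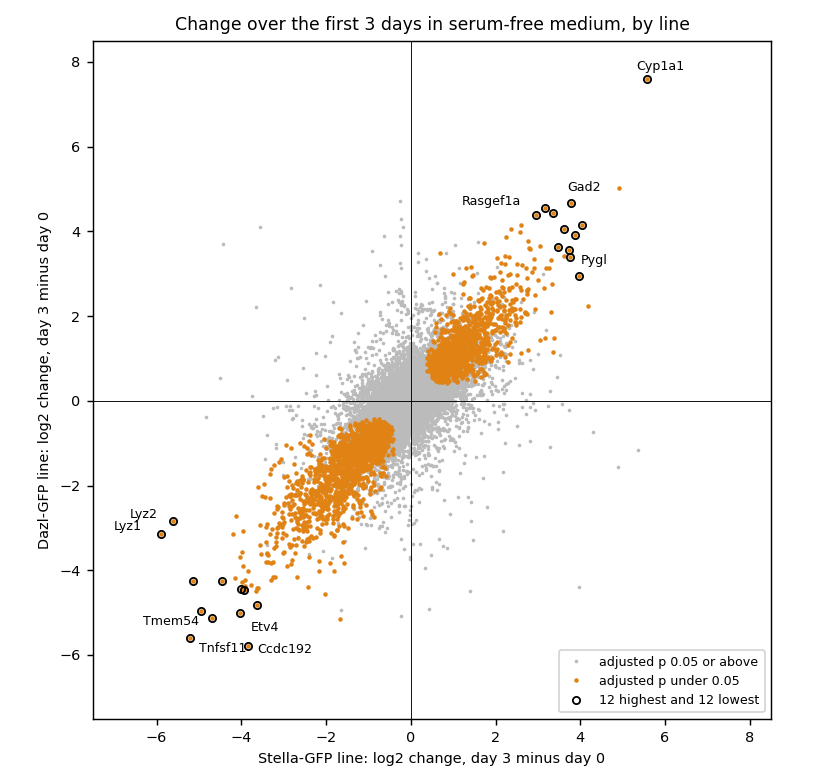
Change in the Dazl-GFP line (vertical axis) against change in the Stella-GFP line (horizontal axis), in log2 units, day 3 minus day 0, for 20791 genes; orange points passed an adjusted p of 0.05, grey points did not, and circles mark the 12 highest and 12 lowest changes. The 2900 orange points lie in the lower left and upper right quadrants, with Cyp1a1 farthest to the upper right; its day 0 values, like those of other genes marked in the text, were below background.

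Several genes downstream of ERK were lower at day 3. Among 9 feedback inhibitors of the pathway, 3 fell and none rose, with a median change of -0.97. Among 16 transcription factors and other early genes that ERK is known to turn on, 6 fell and 1 rose, with a median of -0.69. Etv4, an ETS factor, was at 1.63 and 2.50 at day 0 and -2.41 and -2.51 at day 3. The groups did not overlap, and the drop of 4.53 on the log2 scale was a 23.1-fold lower signal (change -4.53, SE 0.26, adjusted p = 0.00148). Spry4, a Sprouty inhibitor of receptor signalling, was at -0.80 and -0.14 at day 0 and -4.78 and -4.04 at day 3, again with both day 3 arrays below both day 0 arrays (change -3.94, SE 0.29, adjusted p = 0.00182). Myc, a growth-promoting transcription factor, was at 2.06 and 2.92 at day 0 and -1.85 and -1.45 at day 3, a change of -4.14 (SE 0.68, adjusted p = 0.0114). Its other probes gave -4.03 and -2.79. Dusp6, the phosphatase that acts on ERK itself, was at 4.33 and 4.65 at day 0 and 1.77 and 1.73 at day 3, a change of -2.74 (SE 0.37, adjusted p = 0.00632).

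The ETS factor Etv1 changed by -2.33 (SE 0.39, adjusted p = 0.0119), the AP-1 subunit Fosl1 by -1.76 (SE 0.25, adjusted p = 0.00718), the Ras-pathway inhibitor Spred1 by -0.99 (SE 0.19, adjusted p = 0.0192), Phlda1 by -1.49 and cyclin D1 (Ccnd1) by -1.30. Other members of these lists did not pass, and 1 rose. Etv5, the near relative of Etv4, was at 0.42 and -0.02 at day 0 and 0.08 and 0.34 at day 3 (change 0.01, SE 0.25, adjusted p = 0.982), and the phosphatase Dusp4 at 1.20 and 1.30 at day 0 and 1.46 and 1.17 at day 3 (change 0.06, SE 0.33, adjusted p = 0.930), with overlapping groups in both. Jun, the main AP-1 subunit, rose, from -2.52 and -2.98 to -1.42 and -1.12 (change 1.48, SE 0.25, adjusted p = 0.0130). Spry2, at 2.79 and 2.00 at day 0 and 1.84 and 1.02 at day 3, missed the threshold (adjusted p = 0.0558). Other probes of Dusp4 and Spry2 gave -0.99 and 0.19, and neither passed. Etv4 and Spry4 kept their calls. The number of feedback inhibitors called lower was 2, 1, 1 and 2 without S0, S3, D0 and D3, and that of the transcription factors 5, 2, 1 and 3.

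The FGF ligands Fgf5, Fgf15 and Fgf17 fell, while by the brightest probes no receptor and 1 kinase or adaptor of the pathway passed the test. Another ligand, Fgf4, was not among the genes on the array and so was not tested. Of 9 FGF ligands and receptors tested 3 fell and none rose, with a median of -1.10. Fgf15, a secreted ligand, was at -0.28 and -2.34 at day 0 and -3.41 and -5.31 at day 3 (change -3.05, SE 0.27, adjusted p = 0.00242). Here the Stella-GFP line was above the Dazl-GFP line by about the same amount on both days, and both lines dropped. Fgf5, the ligand of the early postimplantation epiblast, was at -0.21 and -1.96 at day 0 and -2.83 and -4.74 at day 3 (change -2.70, SE 0.32, adjusted p = 0.00447), and Fgf17 at -1.92 and -2.66 at day 0 and -4.73 and -4.64 at day 3 (change -2.39, SE 0.31, adjusted p = 0.00539). Fgf8 was at -1.16 and -2.07 at day 0 and -2.70 and -3.27 at day 3, which did not pass (adjusted p = 0.0767). The receptors Fgfr1 and Fgfr2 had changes of 0.52 and 1.27 (adjusted p = 0.0620 and 0.0632). Of the other probes of Fgfr1, 1 passed, at 0.78 (adjusted p = 0.0293). Of 14 kinases and adaptors on the pathway list, Gsk3a and Gsk3b among them, Shc1 alone fell by the brightest probes. Its change was -0.58 (adjusted p = 0.0400), and the list's median was -0.07. Other probes of Braf gave -0.76 and -0.81, which passed (adjusted p = 0.0411 and 0.0457), and -0.10, 0.11 and 0.14, which did not. Map2k1, which encodes MEK1, was at 2.42 and 2.95 at day 0 and 2.59 and 2.70 at day 3, with overlapping groups. Fgf15 and Fgf17 kept their calls. The number of ligands called lower was 3, 3, 2 and 3 without S0, S3, D0 and D3, and the Shc1 call was lost without any 1 of them.

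Several Wnt target genes also fell. Of 18 tested, 8 were lower at day 3 and none higher, with a median change of -1.51 beside -0.04 over all genes. Sp5, a zinc-finger factor that β-catenin turns on directly, was at 0.70 and -0.24 at day 0 and -2.21 and -4.14 at day 3 (change -3.40, SE 0.48, adjusted p = 0.00720). The day 3 values lay below both day 0 values, and the line difference widened by day 3. Cyclin D2 (Ccnd2) was at 2.00 and 1.74 at day 0 and -0.66 and -1.29 at day 3 (change -2.84, SE 0.27, adjusted p = 0.00279), a 7.16-fold lower signal with little difference between lines. Nkd1, which restrains Wnt signalling, was at -0.68 and -1.10 at day 0 and -2.70 and -3.63 at day 3 (change -2.28, SE 0.29, adjusted p = 0.00539), and the secreted inhibitor Dkk1 at -1.48 and -0.20 at day 0 and -3.79 and -2.74 at day 3 (change -2.42, SE 0.61, adjusted p = 0.0403), with -2.14 from another probe that did not pass. The homeobox gene Cdx2 was well above background on both day 0 arrays and on neither day 3 array, at least 3.79-fold lower, where the bound sets the day 0 mean against the lowest signal well above background on each day 3 array. Its fitted change had an adjusted p of 0.0263. Axin2, a scaffold of the β-catenin destruction complex and a standard readout of Wnt signalling, was at -0.34 and -0.70 at day 0 and -1.30 and -1.68 at day 3, with a drop of 0.97 that only just passed (adjusted p = 0.0450). T, the mesoderm factor Brachyury, fell by 1.15 and Cdx1 by 1.86. Ccnd2 kept its call, and the number of targets called lower was 4, 4, 1 and 2 without S0, S3, D0 and D3.

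Few components of the β-catenin pathway passed. Of 12 tested, 1 rose and none fell, and the median was 0.09. That gene was Lrp6, the Wnt co-receptor, at -3.67 and -3.47 at day 0 and -2.89 and -2.64 at day 3 (change 0.80, SE 0.16, adjusted p = 0.0221); its other probe gave 0.07, and the call was lost without any 1 of the 4 arrays. Ctnnb1, which encodes β-catenin, was at 3.71 and 3.75 at day 0 and 3.59 and 3.60 at day 3, Gsk3b at -1.99 and -1.66 at day 0 and -1.61 and -1.72 at day 3, and the repressor Tcf7l1 at 3.33 and 2.91 at day 0 and 3.84 and 3.67 at day 3. By these probes none passed, with changes of -0.14, 0.16 and 0.63 (adjusted p = 0.563, 0.612 and 0.0744). Their probes did not all go the same way. Another probe of Gsk3b passed, at 0.83 (adjusted p = 0.0484), another of Ctnnb1 gave 0.78 (adjusted p = 0.0534), and that of Tcf7l1 gave -0.35 (adjusted p = 0.551).

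The promoter of Sp5 is shown because this gene had both a strong drop in serum-free medium and a large difference from the FBS arm, described further on. It is the 250 bases before the gene's start in RefSeq, build GRCm38.p6, at chr2:70474673-70474922 on the + strand, and the capitals mark a match to the TCF/LEF motif CTTTGAT, 104 bases before the start.
Sp5 promoter: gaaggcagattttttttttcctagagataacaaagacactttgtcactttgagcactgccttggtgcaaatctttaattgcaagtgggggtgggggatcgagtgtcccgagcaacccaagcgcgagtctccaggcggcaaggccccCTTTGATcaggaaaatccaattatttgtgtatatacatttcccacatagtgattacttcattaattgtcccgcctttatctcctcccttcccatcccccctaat
The motif was searched on both strands in windows of that length before 32851 starts, of which 3.21% held it. Of the 18 Wnt targets, 13 had a promoter in the table and 2 of those, Sp5 and Tnfrsf19, held a match. A match describes the letters and is not a measured binding site. The motif of ETS factors, CCGGAAG, was in 6.91% of all windows and in 0 of the 8 ERK-induced genes that had a promoter entry, out of 16 tested.

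**Figure D2:**
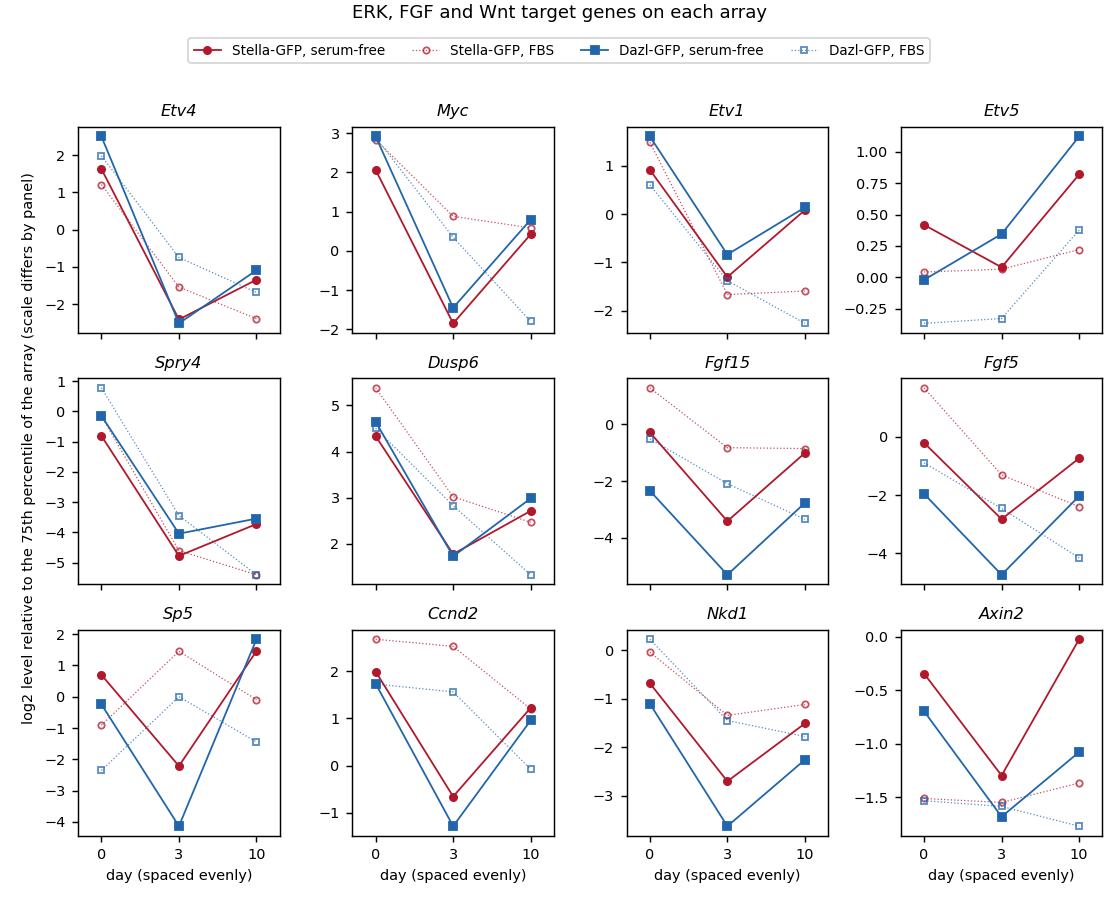
Level (vertical axis, log2 signal relative to the 75th percentile of the array) at days 0, 3 and 10 (horizontal axis) for 12 genes of the ERK, FGF and Wnt lists, 1 line per cell line, solid for serum-free and dotted for FBS medium. Etv4, Myc, Spry4 and Dusp6 drop between day 0 and day 3 in both cell lines, Etv5 lies between -0.02 and 0.42 on both days in serum-free medium, and Sp5 drops in serum-free medium to -2.21 and -4.14 and is at 1.46 and 1.84 at day 10.

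The strongest rise of any named gene was in a target of the aryl hydrocarbon receptor (AHR), a ligand-activated factor that senses planar aromatic compounds and partners with ARNT. Cyp1a1 was at -6.64 and -7.55 at day 0 and -1.07 and 0.06 at day 3 (adjusted p = 0.00373). Neither day 0 array was well above background and both day 3 arrays were, so the signal was at least 40.7-fold higher at day 3, and the call was kept. The receptor's own repressor Ahrr was at -3.89 and -3.79 at day 0 and -3.17 and -3.04 at day 3 (change 0.73, SE 0.18, adjusted p = 0.0345). These were the 2 called among 6 AHR targets tested, and the list's median was 0.64. Cyp1b1, another classical target, was at -2.77 and -2.71 at day 0 and -2.34 and -2.63 at day 3 (adjusted p = 0.736), and Tiparp at 1.67 and 1.90 at day 0 and 2.53 and 2.27 at day 3 (adjusted p = 0.135). Cyp1a2 was not well above background on any of the 4 arrays, and Nqo1 had a change of 0.66 (adjusted p = 0.110). In FBS medium Cyp1a1 was at -5.84 and -7.63 at day 0 and -2.87 and -1.69 at day 3, also higher at day 3 in both lines. The Ahrr call was lost without any 1 of the 4 arrays.

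The promoters of both called AHR targets are shown from the same table, with GCGTG, the core that AHR and ARNT bind, in capitals. For Cyp1a1 the window is chr9:57697363-57697612 on the + strand, with a match 54 bases before the start. For Ahrr it is chr13:74292332-74292581, read on the - strand, with matches 107, 82 and 27 bases before the start.
Cyp1a1 promoter: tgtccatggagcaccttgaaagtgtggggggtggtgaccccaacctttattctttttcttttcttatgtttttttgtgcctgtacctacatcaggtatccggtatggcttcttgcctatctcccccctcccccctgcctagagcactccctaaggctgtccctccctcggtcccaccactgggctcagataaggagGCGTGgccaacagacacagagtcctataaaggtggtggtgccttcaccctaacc
Ahrr promoter: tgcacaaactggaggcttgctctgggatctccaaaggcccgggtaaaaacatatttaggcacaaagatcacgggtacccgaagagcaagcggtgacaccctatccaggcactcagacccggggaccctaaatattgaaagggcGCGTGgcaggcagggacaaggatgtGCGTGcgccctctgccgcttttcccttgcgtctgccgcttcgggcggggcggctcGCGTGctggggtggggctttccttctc
This short core is common: 28.2% of all windows held it on either strand. It was in 4 of the 6 list members, Ahrr, Cyp1a1, Cyp1b1 and Tiparp, of which Cyp1b1 and Tiparp did not pass the test.

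Several genes of the naive state rose, and Gbx2 fell steeply. Of 14 tested, 3 rose and 1 fell, with a median of 0.72. Tbx3, a T-box factor, was at 2.06 and 2.80 at day 0 and 4.35 and 4.60 at day 3 (change 2.04, SE 0.42, adjusted p = 0.0221). Klf4, a factor of the naive network, was at 4.70 and 4.76 at day 0 and 5.62 and 5.97 at day 3 (change 1.06, SE 0.28, adjusted p = 0.0477), and Tcl1, an activator of AKT signalling, at 0.95 and 1.12 at day 0 and 2.26 and 2.25 at day 3 (change 1.22, SE 0.25, adjusted p = 0.0231). All day 3 values of these genes lay above their day 0 values. Gbx2, a homeobox factor downstream of LIF, fell from 0.65 and 1.95 to -2.96 and -2.46 (change -4.01, SE 0.50, adjusted p = 0.00516), although its other probe gave -0.60 (adjusted p = 0.185). Klf2 was at 6.97 and 5.87 at day 0 and 7.59 and 7.47 at day 3 and Esrrb at 3.68 and 3.89 at day 0 and 4.35 and 4.62 at day 3, both with higher day 3 values and neither past the threshold by these probes (adjusted p = 0.0505 and 0.129). Another probe of Esrrb passed, at 1.47 (adjusted p = 0.0326), while that of Klf2 gave 0.16 (adjusted p = 0.607). Gbx2 kept its call, and no naive gene was called higher when any 1 of the 4 arrays was left out.

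Of 13 general pluripotency genes 1 rose and 2 fell, with a median of -0.21. Beside 5.89% of all genes called higher and 8.06% called lower, these calls are read as single genes. Nanog, the homeobox factor of the pluripotent epiblast, was at 2.53 and 2.66 at day 0 and 3.31 and 3.80 at day 3 (change 0.96, SE 0.18, adjusted p = 0.0184), higher in both lines. Pou5f1, which encodes Oct4, was at 4.76 and 5.00 at day 0 and 4.66 and 4.69 at day 3 (adjusted p = 0.789), and Sox2 at 3.63 and 3.39 at day 0 and 4.01 and 4.16 at day 3 (adjusted p = 0.0775). Lin28a, an RNA-binding protein that blocks let-7, fell by 1.76 (adjusted p = 0.0155), and Dppa4 by 0.78 (adjusted p = 0.0254). Each of the calls for Nanog, Lin28a and Dppa4 was lost without any 1 of the 4 arrays.

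Genes of the formative and primed states were called lower more often than higher. Of 15 tested, 5 fell, Fgf5 among them, and 1 rose, with a median of -0.40. Pou3f1, a POU factor of the early epiblast and neural lineage, was at 3.38 and 3.24 at day 0 and 0.12 and -0.56 at day 3 (change -3.53, SE 0.38, adjusted p = 0.00373), a 11.5-fold lower signal. Tcf15, a basic helix-loop-helix factor that primes ES cells for differentiation, was at 4.32 and 4.61 at day 0 and 1.17 and 1.62 at day 3 (change -3.07, SE 0.25, adjusted p = 0.00201), and Dnmt3b, a de novo DNA methyltransferase, at 4.35 and 4.02 at day 0 and 1.52 and 1.21 at day 3 (change -2.82, SE 0.35, adjusted p = 0.00513). In each the lines were close together on both days and far apart between days. Lin28b fell by 1.43, and Nodal, the TGFβ-family ligand, rose from 3.13 and 3.07 to 3.81 and 3.91 (adjusted p = 0.0355). Otx2, a homeobox factor of the same state, was at 0.83 and -0.43 at day 0 and 0.77 and 0.54 at day 3, with overlapping groups. Pou3f1 and Tcf15 kept their calls, and the number called lower was 4, 4, 2 and 4 without S0, S3, D0 and D3.

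**Figure D3:**
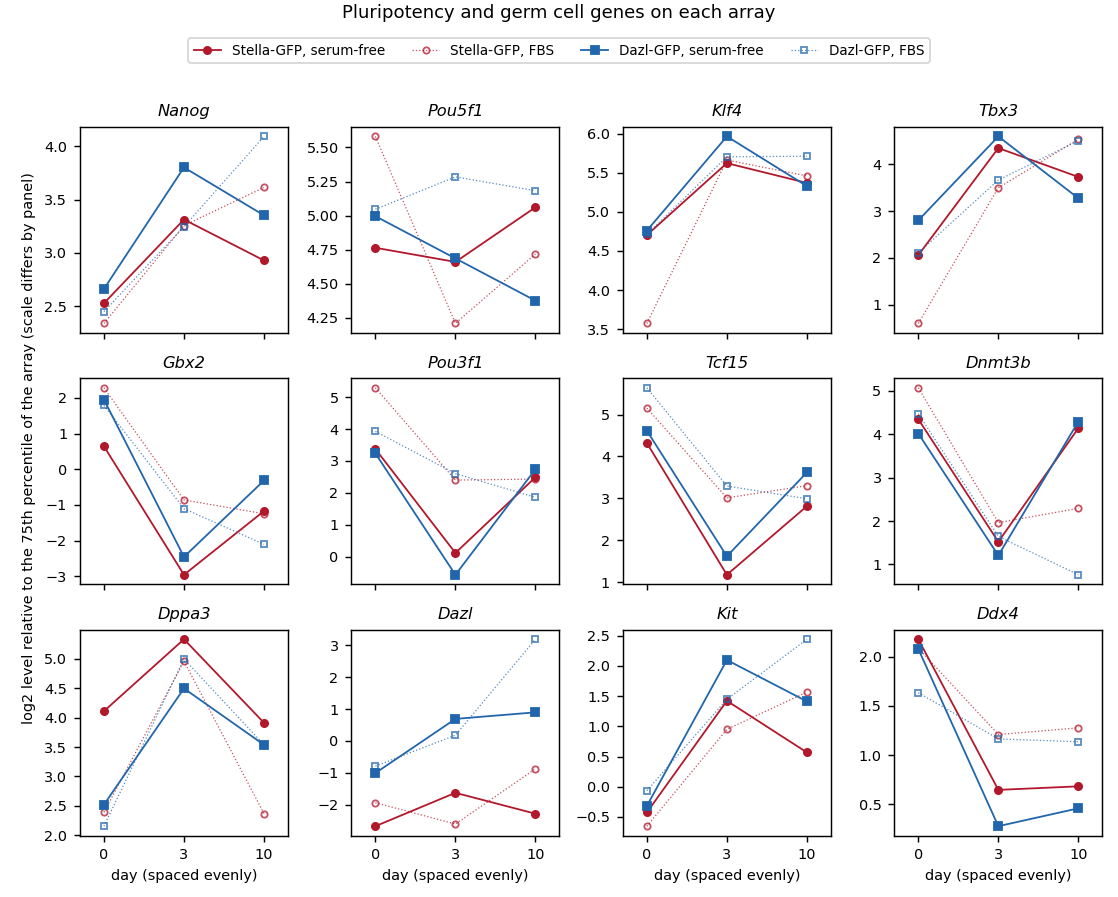
Level (vertical axis, log2 signal relative to the 75th percentile) at days 0, 3 and 10 (horizontal axis) for 12 genes of pluripotency and the germ line, drawn as in the plot of pathway genes. Nanog, Klf4, Tbx3 and Kit are higher at day 3 than at day 0 in both serum-free lines, Gbx2, Pou3f1, Tcf15 and Dnmt3b are lower, and Dnmt3b is back at 4.14 and 4.29 at day 10.

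The targets of cytokine and TGFβ-family signals were mixed. Counts of 1 or 2 are read as single genes, beside 5.89% of all genes called higher and 8.06% called lower. Of 13 LIF and STAT3 targets 4 fell and 1 rose (Gbx2 and Klf4 are also on the naive list), with a median of -0.04. Socs3, the feedback inhibitor of STAT3 signalling, was at 3.30 and 3.37 at day 0 and 2.16 and 2.31 at day 3 (change -1.11, SE 0.15, adjusted p = 0.00582), with closely matched lines. Bcl3 was at 1.79 and 1.83 at day 0 and 1.15 and 1.07 at day 3 (adjusted p = 0.0273) and the receptor subunit gene Osmr at -1.56 and -1.98 at day 0 and -2.89 and -3.33 at day 3 (adjusted p = 0.0431). Stat3 itself was at 0.93 and 0.95 at day 0 and 1.05 and 0.75 at day 3, with overlapping groups. Of 11 BMP targets 1 rose and 2 fell (median -0.48): Id4, an inhibitor of helix-loop-helix factors, rose from -0.83 and -0.59 to 1.27 and 1.42 (change 2.05, SE 0.25, adjusted p = 0.00464), while its relative Id1 fell from 1.12 and 2.10 to -0.55 and -0.55 (change -2.16, SE 0.54, adjusted p = 0.0388). Smad7, an inhibitory SMAD, fell by 0.81 (adjusted p = 0.0163). Of 8 Nodal targets, Nodal rose, Smad7 fell and 6 did not pass (median -0.65). Lefty1, the Nodal inhibitor, was at 4.11 and 3.36 at day 0 and 4.73 and 3.85 at day 3, and Cer1 was above background on 1 day 0 array and on neither day 3 array (adjusted p = 0.0802). Id4 kept its call, while no BMP target was called lower and no Nodal target called at all without S0, S3, D0 or D3. The number of LIF targets called lower was 2, 1, 1 and 2 without S0, S3, D0 and D3.

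Early germ cell genes were called higher more often than lower, and later germ cell genes were called lower only. Of 9 genes of primordial germ cell specification 3 rose and 1, Lin28a, fell, with a median of 1.53. Kit, the receptor tyrosine kinase of germ cells and several other stem cells, was at -0.43 and -0.32 at day 0 and 1.42 and 2.10 at day 3 (change 2.13, SE 0.21, adjusted p = 0.00298). Prdm1, which encodes the repressor Blimp1, was at -1.38 and -2.37 at day 0 and 0.07 and 0.58 at day 3 (change 2.21, SE 0.39, adjusted p = 0.0141), and the AP-2 factor Tfap2c at 2.02 and 0.49 at day 0 and 3.29 and 3.29 at day 3 (change 2.03, SE 0.48, adjusted p = 0.0330). The Dazl-GFP line began lower than the Stella-GFP line for Prdm1 and Tfap2c and reached the same level or higher. Without D0 the Tfap2c change was 1.20 and lost its call; only Kit of these kept it. Dppa3, the Stella gene, was at 4.11 and 2.52 at day 0 and 5.33 and 4.49 at day 3, higher at day 3 in both lines without passing (change 1.60, SE 0.55, adjusted p = 0.0930).

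Of 22 later germ cell genes 7 fell and none rose, with a median of -0.39. Piwil4, a PIWI protein of fetal male germ cells, was at -1.86 and -1.68 at day 0 and -4.91 and -4.42 at day 3 (change -2.89, SE 0.39, adjusted p = 0.00624). Ddx4, the germ cell helicase Vasa, was at 2.18 and 2.08 at day 0 and 0.65 and 0.28 at day 3 (change -1.67, SE 0.16, adjusted p = 0.00295), and Mael, Tdrd1 and Piwil2, which act in transposon silencing by piRNAs, fell by 1.96, 1.46 and 1.30 (adjusted p = 0.00895, 0.00447 and 0.00895). Mov10l1 and Slc25a31 fell by 1.00 and 1.23. Dazl was at -2.68 and -1.01 at day 0 and -1.63 and 0.69 at day 3. It was higher at day 3 in each line, but the lines differed by more than a log2 unit on both days and the groups overlapped (change 1.37, SE 0.62, adjusted p = 0.182). Its other probe gave 1.72 (adjusted p = 0.0442). In a line that carries a Dazl-GFP construct, whether a Dazl probe also reads the construct's RNA was not tested. Ddx4 kept its call, and the number called lower was 6, 2, 1 and 3 without S0, S3, D0 and D3. Of 6 genes of the 2-cell embryo none passed, although all were lower in both lines (median -1.0). Zscan4c was at -0.02 and -2.79 at day 0 and -1.23 and -3.73 at day 3. Zfp352 was at -4.52 and -5.45 at day 0 and -5.94 and -6.26 at day 3. These day 3 values of Zfp352 lay near or below the lowest signals well above background on S3 and D3, -5.96 and -6.21.

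Of 16 genes linked to DNA methylation and its removal, 1 rose and 3 fell, Dnmt3b with the largest drop, and the median was -0.24. Tet1 was at 0.67 and 0.56 at day 0 and 0.80 and 0.40 at day 3, Tet2 at 1.31 and 1.72 at day 0 and 1.42 and 1.91 at day 3 and Tet3 at -3.06 and -2.35 at day 0 and -3.55 and -3.18 at day 3. The groups overlapped for Tet1 and Tet2. Changes were -0.01, 0.15 and -0.66, with adjusted p = 0.979, 0.623 and 0.336. Other probes gave -0.06 and 0.95 for Tet2 and -0.31 and 0.20 for Tet3, and none passed. Dnmt1, the maintenance methyltransferase, changed by -0.07 (adjusted p = 0.833) and its partner Uhrf1 by -0.62 (adjusted p = 0.0815). The stress-induced genes Gadd45a and Gadd45b moved apart, with Gadd45a at 2.97 and 2.98 at day 0 and 2.18 and 1.89 at day 3 (adjusted p = 0.0227) and Gadd45b at 0.35 and 0.18 at day 0 and 1.84 and 1.66 at day 3 (adjusted p = 0.0248). Without S0, S3, D0 and D3 the number called lower was 2, 2, 0 and 2, and the Gadd45b call was lost without any 1 of them.

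Few lineage genes passed the test. With 8.06% of all genes called lower, counts of 1 or 2 among 10 to 13 genes are read as single genes and not as a result about a list. Among 11 neuroectoderm genes 2 fell and none rose (median -0.49): the neural factor Sox1 was at -1.18 and -1.08 at day 0 and -2.78 and -2.96 at day 3 (change -1.75, SE 0.32, adjusted p = 0.0156), although its other probe gave -0.46 (adjusted p = 0.521), and the zinc-finger gene Zic1 was above background at day 0 only, at least 2.35-fold lower at day 3 (adjusted p = 0.0240). Nes, which encodes the neural progenitor filament nestin, was at 0.46 and -0.66 at day 0 and 0.50 and -0.63 at day 3. Of 10 mesendoderm genes T alone fell (median -0.71), and Eomes was at -3.34 and -2.22 at day 0 and -1.64 and -1.47 at day 3 (adjusted p = 0.0568). Of 13 primitive endoderm genes 2 fell and none rose (median -0.44). Lrp2, the endocytic receptor megalin, was at 1.36 and 1.66 at day 0 and -1.41 and -0.41 at day 3 (change -2.42, SE 0.44, adjusted p = 0.0156), with -0.32, -2.51 and -2.05 from its other probes. Afp, alpha-fetoprotein, was above background on 1 day 0 array and no day 3 array, at least 1.08-fold lower. Its adjusted p was 0.0481, and up to 0.199 with an array left out. The endoderm factors Gata4 and Gata6 had overlapping groups, and Gata6 was at -2.01 and -0.19 at day 0 and -1.27 and -0.15 at day 3. The summed level of the primitive endoderm list was 9.33 and 13.1 at day 0 and 3.30 and 6.91 at day 3. Of 11 trophoblast genes Cdx2 fell and Tfap2c rose, both also on other lists (median -0.14). The Sox1, Zic1 and Afp calls were lost without each of S3, D0 and D3, and the Sox1 and Zic1 calls also without S0. The number called lower without S0, S3, D0 and D3 was 1, 1, 0 and 0 for mesendoderm, 1, 0, 0 and 1 for primitive endoderm and 0, 0, 0 and 0 for trophoblast.

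Several basement membrane genes rose. Of 9 tested, 4 were higher at day 3 and none lower, with a median of 1.12. The nidogens Nid1 and Nid2, which link laminin to collagen IV, were at 2.48 and 2.51 at day 0 and 3.66 and 3.85 at day 3 for Nid1 and 3.41 and 2.96 at day 0 and 4.58 and 4.03 at day 3 for Nid2. Their changes were 1.26 (SE 0.21, adjusted p = 0.0118) and 1.12 (SE 0.19, adjusted p = 0.0133). The laminin chain Lamc1 was at 4.12 and 4.53 at day 0 and 4.77 and 5.27 at day 3 (change 0.70, SE 0.17, adjusted p = 0.0347), and Lama1 at -1.41 and -0.02 at day 0 and -0.17 and 1.27 at day 3 (change 1.27, SE 0.31, adjusted p = 0.0365). The Lama1 groups overlapped because the lines differed, while each line rose by more than 1 unit; its other probe gave -0.04. Col4a1 was at 0.36 and 1.29 at day 0 and 1.88 and 2.80 at day 3 (adjusted p = 0.0849). None of the 4 calls was kept when any 1 of the 4 arrays was left out.

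Most of the fibroblast markers that passed the test fell. Of 19 markers, 10 were lower at day 3 and 1 higher, with a median of -1.30, and, as given above, their summed level was lower at day 3 in both lines. S100a4, a calcium-binding protein of mesenchymal cells, was at 2.51 and 2.33 at day 0 and -0.90 and -1.48 at day 3 (change -3.61, SE 0.31, adjusted p = 0.00230), although its other probe gave -0.08. The surface protein Thy1 was at 1.92 and 1.95 at day 0 and -0.47 and -1.01 at day 3 (change -2.67, SE 0.34, adjusted p = 0.00539), and the microfibril gene Fbn1 at -0.82 and -0.92 at day 0 and -2.94 and -3.35 at day 3 (change -2.27, SE 0.26, adjusted p = 0.00430). Vim, which encodes vimentin, was at 4.50 and 4.48 at day 0 and 3.46 and 2.93 at day 3 (adjusted p = 0.0160). Pdgfrb, Twist2, Loxl1, Col5a1, Prrx1 and Twist1 fell by between 2.03 and 0.86. The collagen gene Col1a1 was at 3.29 and 2.92 at day 0 and 2.31 and 1.79 at day 3 and missed the threshold (adjusted p = 0.0569). Fn1, which encodes fibronectin, rose from 3.04 and 2.68 to 4.19 and 4.17 (adjusted p = 0.0203). Fn1 is part of the summed level, which was lower at day 3 although Fn1 rose. S100a4 kept its call, and the number called lower was 5, 4, 2 and 4 without S0, S3, D0 and D3.

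Cytoskeletal genes of the serum response moved with the fibroblast markers. Of 17 targets of SRF and its actin-sensing coactivators 6 fell and none rose, with a median of -0.58. The smooth muscle genes Myl9, Tagln and Cnn1 led. Myl9 was at 1.57 and 1.05 at day 0 and -1.48 and -1.92 at day 3 (change -3.01, SE 0.29, adjusted p = 0.00277), Tagln at 2.01 and 1.71 at day 0 and -0.16 and -0.58 at day 3 (change -2.23, SE 0.27, adjusted p = 0.00479) and Cnn1 at -0.56 and -0.83 at day 0 and -2.44 and -2.91 at day 3 (change -1.98, SE 0.17, adjusted p = 0.00242). Acta1, Ankrd1 and Tpm2 fell by 1.48, 1.44 and 1.32. Srf itself was at 2.57 and 2.43 at day 0 and 1.80 and 2.12 at day 3 (adjusted p = 0.184). The part that fewer fibroblast transcripts have in these drops was not tested. Myl9 and Cnn1 kept their calls, and the number called lower was 4, 4, 3 and 6 without S0, S3, D0 and D3.

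Chemokines were the list with the lowest median, -2.20. Of 11 tested 7 fell and none rose. Ccl2, which attracts monocytes, was at 3.11 and 2.66 at day 0 and -0.31 and -0.66 at day 3 (change -3.37, SE 0.43, adjusted p = 0.00539). Cxcl10, an interferon-induced attractant of T cells, was at -1.33 and -1.43 at day 0 and -4.34 and -5.02 at day 3 (change -3.30, SE 0.56, adjusted p = 0.0132), and Cxcl12, the ligand of Cxcr4, at -0.95 and -2.54 at day 0 and -3.66 and -4.24 at day 3 (change -2.20, SE 0.27, adjusted p = 0.00465). Cx3cl1, fractalkine, was at -0.58 and -0.54 at day 0 and -3.58 and -3.40 at day 3 (change -2.93, SE 0.27, adjusted p = 0.00244), with nearly equal lines, although its other probe gave -0.16. Ccl7, Ccl5 and Ccl20 fell by 2.28, 2.26 and 1.82, and Cxcl1 was at -3.68 and -3.73 at day 0 and -3.75 and -3.70 at day 3. These genes fell together with the fibroblast markers, and how much of their signal came from feeder cells was not tested. Cxcl12 and Cx3cl1 kept their calls, and the number called lower was 5, 4, 3 and 4 without S0, S3, D0 and D3.

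Of 12 macrophage markers 3 fell and 1 rose, with a median of -0.70. Their summed level was 3.84 and 3.42 at day 0 and 1.95 and 2.88 at day 3, with 12 and 11 markers above background at day 0 and 9 and 8 at day 3. On the linear scale of this sum the drop of Lyz2, given next, was larger in each line than that of the whole sum. The summed level of the other markers was therefore not lower at day 3. The lysozyme gene Lyz2 was at 1.04 and 0.06 at day 0 and -4.58 and -2.78 at day 3 (change -4.23, SE 0.76, adjusted p = 0.0152), with -2.35 from another probe that did not pass. Its close copy Lyz1, above background on 1 of 2 day 3 arrays, changed by -4.52 (SE 0.80, adjusted p = 0.0147), and how far the probes of these copies read each other was not tested. Ptprc, the leukocyte antigen CD45, was above background at day 0 only, with a fitted adjusted p of 0.0244. The receptor gene Csf1r was at -4.51 and -5.07 at day 0 and -4.64 and -5.10 at day 3, with overlapping groups, and Cd68 rose by 0.70 (adjusted p = 0.0311). Of 18 interferon-response genes 2 fell and none rose (median 0.10): Ifit3 was at -0.96 and -0.22 at day 0 and -3.03 and -3.02 at day 3 (change -2.43, SE 0.55, adjusted p = 0.0293) and Gbp2 at -2.71 and -2.45 at day 0 and -4.29 and -4.10 at day 3 (change -1.61, SE 0.19, adjusted p = 0.00458), while Isg15 was at -1.54 and -1.18 at day 0 and -2.27 and -1.90 at day 3 (adjusted p = 0.363). Of 9 antigen presentation genes the immunoproteasome subunits Psmb9 and Psmb8 fell, by 2.01 and 1.59 (adjusted p = 0.00744 and 0.00867), and none rose (median -0.19). B2m, the light chain of MHC class I, was at 0.92 and 1.02 at day 0 and 0.71 and 0.85 at day 3 by its brightest probe, and 1 of its other probes gave 2.13. Beside 8.06% of all genes called lower, the counts of 2 in the interferon and presentation lists are read as single genes. Without S0, S3, D0 and D3 the number of macrophage markers called lower was 0, 0, 0 and 2, that of interferon genes 2, 1, 0 and 1 and that of presentation genes 2, 0, 0 and 1.

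Few metabolic genes passed the test. With 5.89% of all genes called higher, counts of 1 to 3 are read as single genes and not as a result about a list. Of 21 sterol synthesis genes 3 rose and none fell (median 0.22): Fdft1, squalene synthase, was at 3.29 and 3.08 at day 0 and 4.11 and 3.78 at day 3, Hsd17b7 changed by 0.75 with 0.05 from its other probe, and Stard4, a sterol carrier, by 1.34, while the other probes of Stard4 gave -0.69 and -0.51. Of 11 fatty acid genes 3 rose and none fell (median 0.52): the elongase Elovl6 was at 2.83 and 2.76 at day 0 and 3.71 and 3.45 at day 3 and the desaturases Fads1 and Fads2 changed by 0.72 and 0.68. Fasn, fatty acid synthase, changed by -0.42 (adjusted p = 0.229). Of 15 glycolysis genes 2 rose and none fell (median 0.04). Pfkp, the platelet form of phosphofructokinase, was at 1.55 and 1.44 at day 0 and 3.48 and 3.49 at day 3 (change 1.99, SE 0.29, adjusted p = 0.00835), and Slc2a3, a glucose transporter, at 5.23 and 5.21 at day 0 and 6.27 and 6.14 at day 3 (change 0.99, SE 0.19, adjusted p = 0.0190). Hk1, hexokinase, was at 3.09 and 3.04 at day 0 and 4.10 and 4.07 at day 3 and just missed by its brightest probe (adjusted p = 0.0555), while 3 of its other probes passed, at 1.41, 1.31 and 1.42. Another probe of Pfkp gave 0.54 and did not pass. P4ha1, a collagen prolyl hydroxylase subunit, was the 1 gene called of 11 hypoxia targets, at -0.59 and -0.42 at day 0 and 1.13 and 1.03 at day 3 (median 0.02), and Vegfa was at -1.31 and -0.81 at day 0 and -1.37 and -1.48 at day 3. Cox7a1 was the 1 gene called of 19 on the respiratory chain list, a rise of 0.94 (median 0.04). That list holds subunits and also Cycs, Ppargc1a and Esrra. Ndufs1 changed by -0.20. Except for Pfkp without S0, none of these calls remained without S0, S3, D0 or D3.

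Stress and cell cycle genes were mixed. Counts of 1 or 2 are read as single genes and not as a result about a list. Over all genes, 5.89% were called higher and 8.06% lower. Of 19 ATF4 targets 1 rose and 2 fell (median -0.26): Asns, asparagine synthetase, was at 6.46 and 6.46 at day 0 and 7.55 and 7.63 at day 3 (change 1.12, SE 0.19, adjusted p = 0.0127), Cebpb at 2.20 and 1.78 at day 0 and 0.10 and 0.26 at day 3 (change -1.81, SE 0.33, adjusted p = 0.0166), and Trib3 fell by 1.04 (adjusted p = 0.0326). Of 17 p53 targets the death receptor gene Fas and the BH3-only gene Pmaip1 fell, by 1.18 and 1.16, and none rose (median -0.08); Cdkn1a, which encodes p21, was at 0.79 and 0.89 at day 0 and 1.77 and 1.85 at day 3 (adjusted p = 0.0509). Of 22 cell division genes 6 fell and 1 rose (median -0.42). Cyclin E1 (Ccne1) was at 6.41 and 6.12 at day 0 and 4.37 and 4.27 at day 3 (change -1.94, SE 0.28, adjusted p = 0.00741) and cyclin E2 (Ccne2) at 0.28 and 0.76 at day 0 and -1.19 and -0.66 at day 3 (change -1.44, SE 0.33, adjusted p = 0.0314). Cdc20, Aurka and Ccnb1 fell by 0.86, 0.79 and 0.72. Among the inhibitors of the cell cycle on this list, Cdkn2b fell by 0.79 and Cdkn1b rose by 0.69. The proliferation marker Mki67 was at 4.86 and 4.85 at day 0 and 4.51 and 4.70 at day 3 (adjusted p = 0.304). Other probes of Cebpb and Trib3 gave -1.20 and -0.66 and did not pass. No ATF4 or p53 target was called lower without S0, S3, D0 or D3, and the number of cell division genes called lower was 1, 0, 0 and 1 without S0, S3, D0 and D3.

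Of 15 antioxidant genes 2 rose and 5 fell (median -0.21). The glutathione transferase Gsta2 was above background at day 3 only and at least 4.84-fold higher (adjusted p = 0.0167; it has close copies whose RNA the probe may also read, which was not tested), and Gstm1 rose by 1.16. Heme oxygenase (Hmox1) was at 3.57 and 3.82 at day 0 and 2.69 and 2.59 at day 3 (adjusted p = 0.0435), Gpx2 at 1.19 and 2.64 at day 0 and 0.01 and 1.42 at day 3 (adjusted p = 0.0287), and Gclm, Txnrd1 and G6pdx fell by 0.80, 0.69 and 0.57. No member of this list was called without S0, S3, D0 or D3. Of 13 retinoid-response genes 3 fell and none rose (median -0.57). The nuclear receptor Rxrg was at -0.80 and -1.13 at day 0 and -4.80 and -5.58 at day 3 (change -4.23, SE 0.30, adjusted p = 0.00182), which kept its call, and the retinoic acid binding protein Crabp1 was at -0.19 and -0.24 at day 0 and -1.69 and -1.90 at day 3 (change -1.58, SE 0.22, adjusted p = 0.00674). Without S0, S3, D0 and D3 the number called lower was 2, 2, 1 and 1.

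Imprinted genes, expressed from 1 parental copy, fell in 9 of 22 cases and rose in none, with a median of -0.60. Dlk1, a Notch-like ligand, was at -1.16 and -0.86 at day 0 and -4.94 and -5.20 at day 3 (change -4.06, SE 0.30, adjusted p = 0.00182), a 16.7-fold lower signal. Cdkn1c, the growth-restraining inhibitor p57, was at 1.23 and 1.28 at day 0 and -1.44 and -1.97 at day 3 (change -2.96, SE 0.26, adjusted p = 0.00242). The maternally expressed RNAs of the Dlk1 cluster were lower too, with Meg3 at 3.44 and 2.87 at day 0 and 1.99 and 1.36 at day 3 (change -1.48, SE 0.23, adjusted p = 0.0102) and Rian and Mirg down by 2.28 and 1.97. Phlda2, Grb10, Mest and Snrpn fell by 1.90, 1.43, 2.00 and 0.96. H19 was at -1.75 and -2.42 at day 0 and -1.05 and -1.93 at day 3, with overlapping groups. The fibroblast markers fell over the same days, with the summed levels given above, and their part in these drops was not tested. Dlk1 and Cdkn1c kept their calls, and the number called lower was 6, 4, 2 and 6 without S0, S3, D0 and D3.

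**Figure D4:**
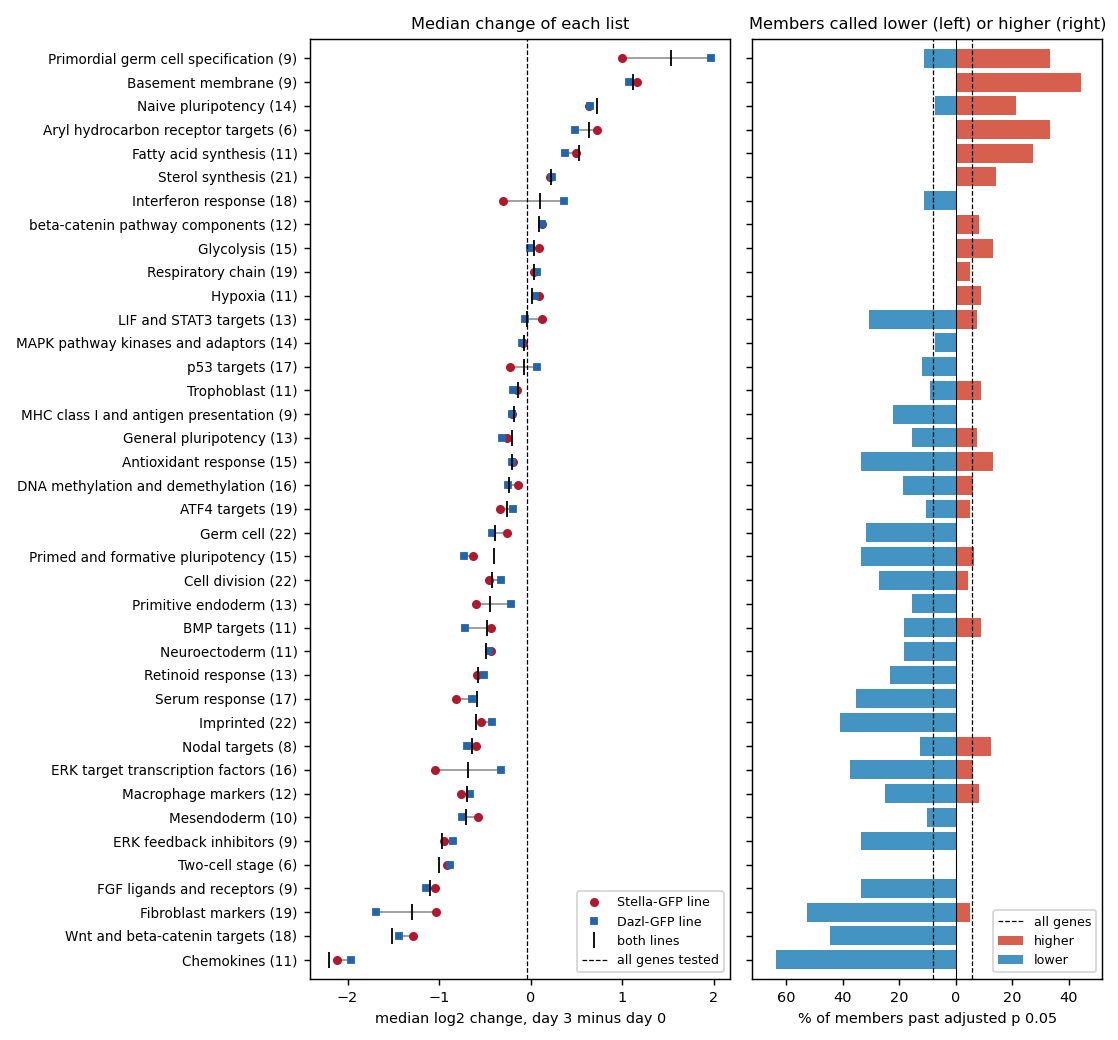
Median change (left panel, log2 units, day 3 minus day 0) of each of the 39 gene lists in the Stella-GFP line, in the Dazl-GFP line and in both, and percent of members called higher or lower (right panel). Chemokines have the lowest median, -2.20, and primordial germ cell specification the highest, 1.53; lines mark the shares over all genes, 5.89% higher and 8.06% lower.

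The 12 highest changes that passed were led by Cyp1a1 and Gad2. Gad2 was at -4.92 and -6.30 at day 0 and -1.15 and -1.64 at day 3 (change 4.22, SE 0.65, adjusted p = 0.00941), above background on 1 of 2 day 0 arrays. Gsx2, Capn6 (a calpain relative), Adh1 (an alcohol dehydrogenase) and Car8 (a carbonic anhydrase relative) were above background at day 3 only, and were at least 6.23-, 11.5-, 3.31- and 5.43-fold higher. Pla1a, a phospholipase, was at -0.01 and -1.63 at day 0 and 3.35 and 2.81 at day 3 (change 3.90, SE 0.38, adjusted p = 0.00279), and Rasgef1a, a Ras exchange factor, at -2.10 and -4.08 at day 0 and 1.06 and 0.47 at day 3 (change 3.85, SE 0.42, adjusted p = 0.00381). The MHC gene H2-Bl, liver glycogen phosphorylase (Pygl) and the homeobox gene Vax2 rose by 3.64, 3.57 and 3.55. Vax2 was at -2.96 and -2.40 at day 0 and 0.52 and 1.22 at day 3, with lines close together. Gad2 and H2-Bl lost their calls without S3 or D0 and Pygl without D0 (adjusted p up to 0.0803, 0.0863 and 0.0571), and the other 9 kept theirs. Another probe of Car8 gave 1.51.

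Among the 12 lowest, Tnfsf11, Il1rl1, Ccdc192 and the scavenger receptor Olr1 were above background at day 0 only, and were at least 10.1-, 15.9-, 12.7- and 5.67-fold lower at day 3. The probes of Il1rl1 disagreed, the others giving 0.78 and -1.39, and the other probes of Tnfsf11 and Ccdc192 gave -3.11 and -1.86. Tmem54 was at 0.88 and -0.01 at day 0 and -3.82 and -5.14 at day 3 (change -4.91, SE 0.30, adjusted p = 0.00148). Mmp3, the protease stromelysin, was at 1.81 and 1.54 at day 0 and -2.66 and -2.73 at day 3 (change -4.37, SE 1.05, adjusted p = 0.0345), and the G protein subunit Gna14 at -0.66 and -0.47 at day 0 and -4.30 and -5.28 at day 3 (change -4.22, SE 0.48, adjusted p = 0.00415). Vat1l changed by -4.20 (SE 0.41, adjusted p = 0.00298) and was above background on 1 of 2 day 3 arrays, with -0.84 and -2.49 from its other probes. Etv4, Rxrg, Lyz1 and Lyz2 completed the set. The Mmp3 call was lost without any 1 of the 4 arrays, Lyz1 and Lyz2 were lost without S0, S3 or D0, Ccdc192 was lost without D0, and the other 8 kept their calls.

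The same 3 days in FBS medium were used to ask which responses differed between the arms. The labels name the inhibitors for the 2i experiments and leave the FBS arm open, so medium and inhibitors cannot be told apart. The FBS changes are given beside the serum-free ones, and the difference between them was tested in the same fit. In the FBS arm the Stella-GFP arrays of day 0 and day 3 were on different slides, while the Dazl-GFP pair shared a slide, as both serum-free pairs did. The difference passed for 342 of 20791 genes, 1.64%, of which 94 had the higher response in serum-free medium and 248 the lower, and 233 of the 342 were also called for the serum-free change. The median difference over all genes was -0.14, and the median FBS change was 0.10. This count is fragile: it was 0 without S0, S3, D0 or either FBS day 3 array, 10 without D3, and 0 with slide as a further block. In those limma fits with 0 calls, 3461 to 4437 genes had an unadjusted p under 0.05, beside 5107 in the fit reported.

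Sp5 had the most negative difference among the genes named. Its levels were -0.91 and -2.36 at day 0 and 1.45 and 0.00 at day 3 in FBS medium, a change of 2.36, against -3.40 in serum-free medium, a difference of -5.76 (SE 0.68, adjusted p = 0.0189). The day 3 values lay above the day 0 values in FBS medium and below them in serum-free medium. Wnt3a, a Wnt ligand on the target list, had changes of -1.93 and 2.31 in serum-free and FBS medium (adjusted p of the difference 0.0475), and Ccnd2 -2.84 and -0.16 (adjusted p = 0.0341). The Wnt list had 3 members with a lower response and none with a higher one. Ccn4, a secreted matrix protein induced by Wnt1, had changes of -2.19 and 2.15, and Lrrc17, a secreted leucine-rich protein, of -1.66 and 2.81 (adjusted p = 0.0165 and 0.0165). Il1rl1, below background at day 3 in serum-free medium, had an FBS change of -0.45.

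Of the 16 ERK target transcription factors 3 had a lower response in serum-free medium and none a higher one, beside 1.64% of all genes in either direction. Of these Fos and Junb are named because they completed that count, after their values were seen. Egr2, a zinc-finger factor, had a change of -0.49 in serum-free and 3.78 in FBS medium, a difference of -4.27 (SE 0.65, adjusted p = 0.0355). Fos had -0.23 and 3.45, and Junb -0.29 and 1.19 (adjusted p = 0.0460 and 0.0472). Among LIF targets Socs3 had -1.11 and 1.06, a difference of -2.17 (SE 0.21, adjusted p = 0.0165), and Bcl3 -0.70 and 1.19 (adjusted p = 0.0189); with Junb, 3 of 13 had a lower response. Etv4, Myc, Spry4 and Dusp6, which fell in serum-free medium, had FBS changes of -2.74, -2.25, -4.34 and -2.02. None of these differences passed (adjusted p = 0.0596, 0.268, 0.576 and 0.433). The lists that hold them did not go the same way. The ERK target transcription factors had a median change of -0.69 in serum-free and 0.54 in FBS medium, with a median difference of -1.46. For the feedback inhibitors these medians were -0.97 and -1.42, with a median difference of 0.56. The differences did not pass for Pou3f1, Tcf15 and Dnmt3b either, with FBS changes of -2.10, -2.25 and -2.97, nor for Nanog, with 0.86 (adjusted p of the differences 0.161, 0.204, 0.888 and 0.838).

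Fibroblast markers had a lower response in serum-free medium in 6 of 19 cases and a higher one in none. Thy1 had changes of -2.67 and 0.96, Col1a1 -1.05 and 2.05, Fbn1 -2.27 and 0.93, and S100a4 -3.61 and -0.13 in serum-free and FBS medium (adjusted p of the differences 0.0286, 0.0300, 0.0189 and 0.0235). The summed fibroblast level in FBS medium was 72.5 and 70.3 at day 0 and 156 and 90.6 at day 3. Myl9, Tagln and Acta1 of the serum-response list had differences of -3.46, -2.63 and -2.27, and the chemokines Ccl5 and Cx3cl1 of -3.39 and -2.74. The part of fibroblast RNA in these differences was not tested.

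Among genes with the higher response in serum-free medium, Capn6 was below background at day 0 and at least 11.5-fold higher at day 3 in serum-free medium. In FBS medium it was at -5.80 and -6.29 at day 0 and -6.37 and -5.71 at day 3, near or below the lowest signals above background on those arrays, so the difference (adjusted p = 0.0189) has no measured size. Mfsd6, a membrane protein of the transporter superfamily, had changes of 1.94 and -1.10 in serum-free and FBS medium (adjusted p = 0.0355). Lalba, the milk protein alpha-lactalbumin, was above background in serum-free medium at day 3 and not at day 0, at least 3.43-fold higher (adjusted p of the difference 0.0477). The homeobox gene Hdx, above background on 1 of 2 serum-free day 0 arrays, had 0.89 and -2.09 (adjusted p = 0.0396). The difference for Figla, an oocyte factor, came from the FBS arm, where it was at -4.23 and -4.49 at day 0 and -7.36 and -7.78 at day 3, and its probe was not well above background on any serum-free array of day 0 or day 3. Lrp6 had 0.80 and -0.46 (adjusted p = 0.0475).

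**Figure D5:**
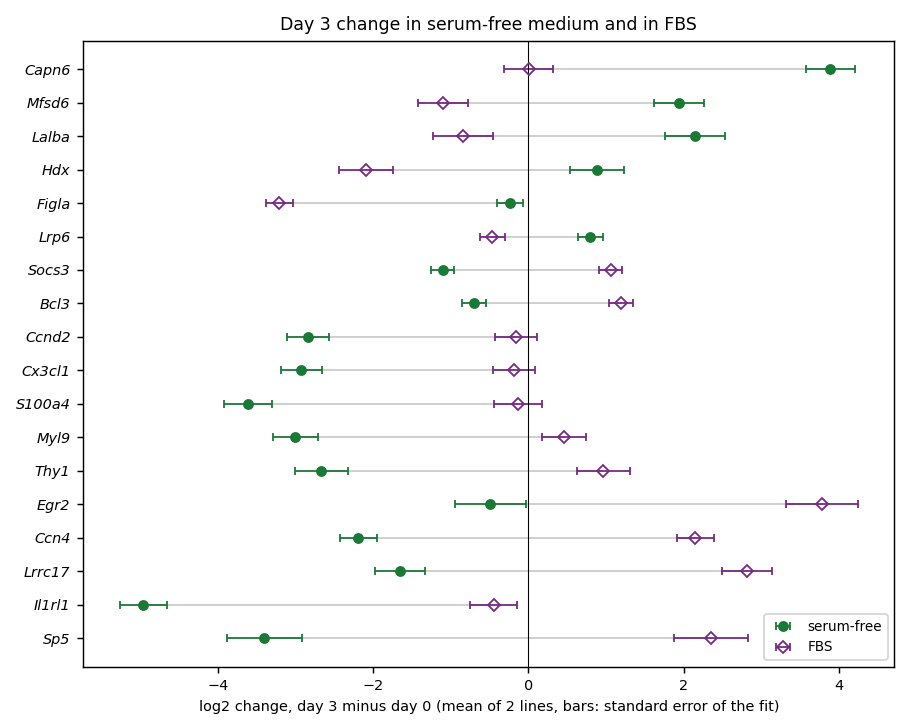
Change between day 0 and day 3 (horizontal axis, log2 units, bars ± SE of the fit) in serum-free and in FBS medium for 18 genes whose responses differed at an adjusted p of 0.05. Sp5 lies at -3.40 in serum-free and 2.36 in FBS medium, and Ccnd2 at -2.84 and -0.16. The points of Capn6, Lalba, Hdx, Il1rl1 and Figla rest partly on values below background and are not measured sizes.

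Levels at day 10 of the serum-free arm are given without a test. Etv4 was at -1.34 and -1.09 and Spry4 at -3.72 and -3.54, between their day 0 and day 3 values. Cyp1a1 was at -1.38 and -0.62, near day 3. Sp5, at 1.46 and 1.84, Dnmt3b, at 4.14 and 4.29, and Axin2, at -0.02 and -1.08, were at or above their day 0 levels in at least 1 line. Nanog was at 2.93 and 3.35, Tbx3 at 3.73 and 3.28 and Kit at 0.57 and 1.41. Dazl was at -2.29 and 0.90 and Dppa3 at 3.91 and 3.54. Dlk1 was at -3.26 and -3.47 and Ccl2 at 0.72 and -0.69.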

How the data were processed

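RNA of the whole culture was extracted with TRIZOL, labelled with Cy3 and hybridised to 1-colour Agilent arrays, per the labels' protocols. Per the file headers, Agilent Feature Extraction 9.1.3.1 gave each spot an intensity with the local background subtracted and detrended, with surrogate values for spots not above background, and 0 or 1 marks for other properties of the spot. The series' deposited table holds background-subtracted intensity divided by each array's median, as its values show; how the authors made it is not given in the sources used here, and it was used as an alternative only.

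The log2 of the processed intensity minus each array's 75th percentile was used, without a pseudocount. Control and outlier spots were left out, spots of a probe averaged, and the probe with the highest mean kept per gene. Genes well above background on at least 2 of 12 arrays were tested: 20791 of 26897. limma 3.58.1 (R 4.3.3, with data.table at version 1.17.8) was fitted to all 12 arrays with the 6 groups and the line as terms, and p-values were adjusted by Benjamini-Hochberg over all genes tested, with a threshold of 0.05. The test was checked on simulated data. Figures used matplotlib 3.10.9. At 2 arrays a group, their number limits the precision. Replicate numbers stand for the lines, which pair the arrays: the deviations of the lines correlated between serum-free day 0 and day 3 at 0.462.

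The 39 gene lists (531 genes, 518 on the array, 507 tested) and the members described were chosen with earlier results of these data known. Named are the 12 highest and 12 lowest changes that passed with the same sign in both lines, the 5 highest and 5 lowest response differences by the same rule, some members of each list, and Dazl, Dppa3, Nanog, Pou5f1 and the Tet genes. Clone, accession, RIKEN and predicted-gene names were left out. Some genes that the rule selects are not reported here. A few further list members named in passing, such as Fos, Junb and Wnt3a, were chosen after their values were seen. A fold "at least" sets the mean of the group above background against the lowest signal well above background on the other group's arrays. Promoters are RefSeq's, build GRCm38.p6; the array files name no build.

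Alternatives were quantile normalization, normexp background correction with an offset of 50, the series' table, other filters, every probe, no line term, slide as a block, a trended prior, fewer arrays and leaving out each array. Normexp with implausible local backgrounds replaced was added after seeing the data.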

Additional observations from a re-analysis of the deposited data

Results flagged for a closer look

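The change over the first 3 days differed between serum-free and FBS medium, by limma's test of the difference itself, for 23 of the genes named by the rule. It also passed for Acta1, Ccl5, Col5a1, Fos, Junb, Twist2 and Wnt3a, which the text names in passing. Values here are the serum-free change minus the FBS change on the log2 scale. The difference was positive for Capn6 3.89 (adjusted p = 0.0189), Mfsd6 3.04 (adjusted p = 0.0355), Hdx 2.98 (adjusted p = 0.0396), Lalba 2.99 (adjusted p = 0.0477), Figla 2.97 (adjusted p = 0.0165) and Lrp6 1.26 (adjusted p = 0.0475). It was negative for the Wnt-induced genes Sp5 -5.76 (adjusted p = 0.0189), Ccnd2 -2.68 (adjusted p = 0.0341) and Ccn4 -4.34 (adjusted p = 0.0165). Among immediate-early genes and LIF targets it was negative for Egr2 -4.27 (adjusted p = 0.0355), Socs3 -2.17 (adjusted p = 0.0165) and Bcl3 -1.89 (adjusted p = 0.0189). Fibroblast and contractile genes with a negative difference were Thy1 -3.63 (adjusted p = 0.0286), S100a4 -3.48 (adjusted p = 0.0235), Fbn1 -3.20 (adjusted p = 0.0189), Col1a1 -3.10 (adjusted p = 0.0300), Myl9 -3.46 (adjusted p = 0.0189) and Tagln -2.63 (adjusted p = 0.0349). The remaining genes were Il1rl1 -4.52 (adjusted p = 0.0165), Lrrc17 -4.47 (adjusted p = 0.0165), Olr1 -3.84 (adjusted p = 0.0347), Cx3cl1 -2.74 (adjusted p = 0.0300) and Gbp2 -1.63 (adjusted p = 0.0409). For Capn6, Lalba, Hdx, Figla, Il1rl1 and Olr1 these values rest partly on arrays where the probe was not well above background, so they are not measured sizes. All these differences passed in the fit of all 12 arrays and share its weak point: with only the 8 arrays of the 4 groups compared, or with slide as a further block, 0 genes passed for the difference by limma, with 4689 and 4437 at an unadjusted p under 0.05.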

How the results depend on the processing

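The serum-free change, 2900 calls, stayed within 1.5 times that count under most of 24 alternatives. Many of these left out an array outside the 4 compared, which leaves each change as it is and alters only its spread. Leaving out any 1 of S0, S3, D0 and D3 took the count outside that range. The count was 64 with normexp correction of the local backgrounds as deposited, 4598 with every probe taken separately and 1919 without the replicate block for line. The FBS day 0 array of the Dazl-GFP line holds an implausible local background, and with such backgrounds replaced normexp gave 3666. Leaving out each array gave 236 to 3960 calls; the array left alone in its group is then assumed to vary like the other groups. Of 132 named genes called, 35 kept the call with each array left out and 9 under every alternative run: Ccnd2, Cdkn1c, Dlk1, Etv4, Gna14, Kit, Spry4, Tcf15 and Tmem54. The rest lost it under at least 1, and the cause was not tested. With every probe, probes of opposite sign, with at least 1 passing, were those of Il1rl1 (0.78), B2m (2.13), Lama1 (-0.044) and Stard4 (-0.69 and -0.51). Braf was a further case: its probes at -0.76 and -0.81 passed, beside others at 0.11 and 0.14. Probes also differed in sign, with none passing, for Ctnnb1, Dusp4, Etv5, Gata4, Mki67, Spry2, Stat3, Tcf7l1, Tet2, Tet3 and Vegfa. Of 39 list medians 30 kept their sign; the MAPK kinases, β-catenin components, LIF, trophoblast, interferon, hypoxia, respiratory, p53 and antioxidant lists did not.

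The difference between arms, 342 calls, was less stable over 23 alternatives. By limma it was 0 with normexp (1783 at an unadjusted p under 0.05), with slide as a further block (4437) and with only the 8 arrays compared (4689). It was 26 without the replicate block, 99 without the filter on dim genes, 1055 with genes above background on all 12 arrays, 1571 with a trended prior and 3083 with repaired normexp, where 15% of calls were higher against 27.5% here. Leaving out each array gave 0 to 1384. Figla turned to -0.13 with repaired normexp, and 1 probe of Il1rl1 was 1.43. The median difference over all genes was -0.06 with quantile normalization and -0.36 with repaired normexp. Where a group was not above background, a fitted change has no measured size.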
